A study of Mus musculus with 8 samples.

Results

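The genes described here are 10 protein-coding genes of mouse chromosome 17 that flank Lama1, the gene activated in this study: Rab12, Ptprm and Lrrc30 on the side of its start, and Arhgap28, L3mbtl4, Tmem200c, Epb41l3, Zbtb14, Dlgap1 and Tgif1 beyond its end. They are a named selection from the genes around Lama1, which leaves out some nearer ones, and all 10 were found among the 23008 mouse genes of the deposited table; 8 reached the mean of 10 normalised reads needed for testing, as 15960 genes did. The questions are whether the activation of Lama1 extended to its neighbours, whether any difference declined with distance, and whether the neighbours followed Lama1 from library to library. The samples were 8 RNA-seq libraries of gastrocnemius, the large calf muscle, from wild-type C57BL/6J mice injected into the tail vein with AAV9, an adeno-associated virus that reaches muscle. All 8 carried the GNDM construct, so the controls held the same activator: 4 libraries had guide m31, which targets Lama1, and 4 had a control guide without a target. Tissue was taken 11 weeks later, and the age at injection is given as 7 weeks in one place and as 7 to 12 weeks in another. The sources used here do not give the dose or the binding position of m31. Nothing in the labels says that the libraries are from different animals, so the spread behind the p-values is that between libraries and may be technical.

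In constructs of this kind, a Cas9 protein that can no longer cut DNA is joined to a transcription activator and led to a promoter by a guide RNA. The deposited table has an entry named CK8, the name of a regulatory cassette made from muscle creatine kinase sequences that is active in striated muscle. Lama1 encodes laminin alpha-1, a chain of the basement membranes of the embryo that adult muscle hardly makes. Neighbouring genes can share enhancers and chromatin domains, which is why a locally recruited activator is examined for effects on the genes around its target.

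Positions are those of the GENCODE annotation on the mouse build GRCm38, in which Lama1 occupies bases 67697259 to 67822647 of chromosome 17, plus strand. Lrrc30 has the nearest start among the 10 genes. It lies on the minus strand from 67630964 to 67632723, head to head with Lama1, with 64.5 kb between the starts. Arhgap28 has the nearest gene body. It lies on the minus strand from 67842713 to 68004120, tail to tail with Lama1, with 20.1 kb between the ends but 307 kb between the starts. Ptprm starts 343 kb away, L3mbtl4 577 kb, Tmem200c 1129 kb, Rab12 1178 kb, Epb41l3 1378 kb, Zbtb14 1686 kb, Dlgap1 2272 kb and Tgif1 3156 kb, all measured from start to start. No annotated gene overlaps Lama1, Rab12, Lrrc30 or Tgif1; the other 7 genes overlap between 1 and 10 annotated genes each, of which 3 (within Ptprm) and 1 (at Zbtb14) had values in the table, and the strand setting of the counting is unknown.

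The promoters of the nearest flanking gene on either side, and of Tmem200c, whose groups of libraries did not overlap, are shown as the regulatory regions of the genes on which the comparison turns. Each sequence is RefSeq's for build GRCm38.p6, 5′ to 3′ on the strand of the gene, from 250 bases before to 50 bases after an annotated start. Capitals mark the TATA box letters TATAAA, the GC box letters GGGCGG of Sp1-type factors and the E-box letters CAGCTG of the type bound by myogenic factors, searched on both strands, where adjoining matches may overlap. The Lrrc30 promoter lies at chr17:67632674-67632973 on the minus strand, the 2 promoters of Arhgap28 at chr17:68004059-68004358 and chr17:67950891-67951190 on the minus strand, and that of Tmem200c at chr17:68836886-68837185 on the plus strand.
Lrrc30: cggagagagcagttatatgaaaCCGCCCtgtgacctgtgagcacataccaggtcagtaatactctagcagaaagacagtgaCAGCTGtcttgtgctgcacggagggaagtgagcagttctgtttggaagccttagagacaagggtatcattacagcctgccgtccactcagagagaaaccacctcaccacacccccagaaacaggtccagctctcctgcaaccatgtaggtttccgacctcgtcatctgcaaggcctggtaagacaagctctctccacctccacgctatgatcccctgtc
Arhgap28, first start: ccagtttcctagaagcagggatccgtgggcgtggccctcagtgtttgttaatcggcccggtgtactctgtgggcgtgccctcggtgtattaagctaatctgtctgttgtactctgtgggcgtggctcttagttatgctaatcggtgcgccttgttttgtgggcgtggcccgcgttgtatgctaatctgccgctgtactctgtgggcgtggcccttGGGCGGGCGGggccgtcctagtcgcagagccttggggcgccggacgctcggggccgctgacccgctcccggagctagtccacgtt
Arhgap28, second start: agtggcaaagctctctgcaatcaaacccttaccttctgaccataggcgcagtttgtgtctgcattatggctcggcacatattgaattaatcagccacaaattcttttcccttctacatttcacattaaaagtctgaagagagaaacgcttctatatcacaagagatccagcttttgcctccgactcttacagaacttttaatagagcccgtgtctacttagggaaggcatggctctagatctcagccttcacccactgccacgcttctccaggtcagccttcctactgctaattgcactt
Tmem200c: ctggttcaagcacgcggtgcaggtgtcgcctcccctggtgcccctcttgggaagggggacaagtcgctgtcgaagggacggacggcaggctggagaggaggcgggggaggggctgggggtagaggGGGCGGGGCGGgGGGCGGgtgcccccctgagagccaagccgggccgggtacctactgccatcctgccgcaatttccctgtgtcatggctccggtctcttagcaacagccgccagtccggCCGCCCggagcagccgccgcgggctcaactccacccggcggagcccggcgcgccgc
The Lrrc30 promoter held 7 CpG dinucleotides, the median over 32851 mouse promoters of this length, with 1 GC box and 1 CAGCTG. At its first start Arhgap28 had 26 CpG dinucleotides and 2 overlapping GC boxes, and at its second start 6 and none. The Tmem200c promoter had 28 CpG dinucleotides and 4 GC boxes, 2 of which overlap. GGGCGG occurs in 35.7% of all promoters, CAGCTG in 16.3% and TATAAA, which none of these 4 held, in 13.6%.

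Values are read counts divided by 1 size factor per library, called normalised reads below. Library depth was 25157486 to 39210248 reads in genes. All 5 fast fibre markers were present in every library, summing to 3039160 to 4063970 normalised reads. In m31 replicates 1 to 4, Lama1 had 209, 295, 273 and 86.5 normalised reads, and in control replicates 1 to 4 it had 4.18, 0, 2.25 and 0, so the labels held. On the scale of log2(value + 1), used for all differences below, m31 exceeded control by 6.60 ± 0.58 (SE; limma, adjusted p = 0.00372), and Lama1 was the 1 gene past the threshold of 0.05. The construct's own GNDM entry ran in the same order over the m31 libraries as Lama1, at 12365, 24487, 15418 and 6157 normalised reads in replicates 1 to 4, and reached 37989 in control replicate 3, where the other controls had 9802 to 13775. Markers of other cells also set libraries apart: 5 of 5 fibrillar matrix markers had positive log2 differences (median 0.99), with sums of 31736 to 163946 normalised reads in the m31 libraries and 19639 to 40197 in the controls, none at 0, and m31 replicate 4 highest. Of the 4 slow fibre markers all had negative differences (median -0.51). Their sums were 8057 to 15553 normalised reads in the m31 libraries and 15823 to 20588.5 in the controls. Of the 10 other laminin chains 7 had positive and 3 negative differences (median 0.14). Of these 19 genes, 0 passed. Tendon markers had positive differences in 5 of 5 (median 0.76) and fibro-adipogenic progenitor markers in 4 of 4 (median 0.29). All 4 Schwann cell markers (median -0.43) and all 5 fast fibre markers (median -0.08) had negative ones, and none of these markers passed.

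None of the 8 tested flanking genes passed the test at an adjusted p under 0.05 (limma, Benjamini-Hochberg over 15960 genes), where 0.00627% of all genes were called. At an unadjusted p under 0.05 stood 1 of the 8, Tmem200c, against 6.79% of all genes, and 0 of them passed by edgeR or DESeq2 on the recovered reads, which called 0.00618% and 0.164% of all genes. Log2 differences ran from -0.08 for Ptprm to 0.72 for Tmem200c, with 6 positive and 2 negative and a median of 0.13; over all tested genes other than Lama1 the median was 0.005. In the plot of values by library, Lama1 separates the guides while 7 of the 8 tested neighbours overlap.

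**Figure D1:**
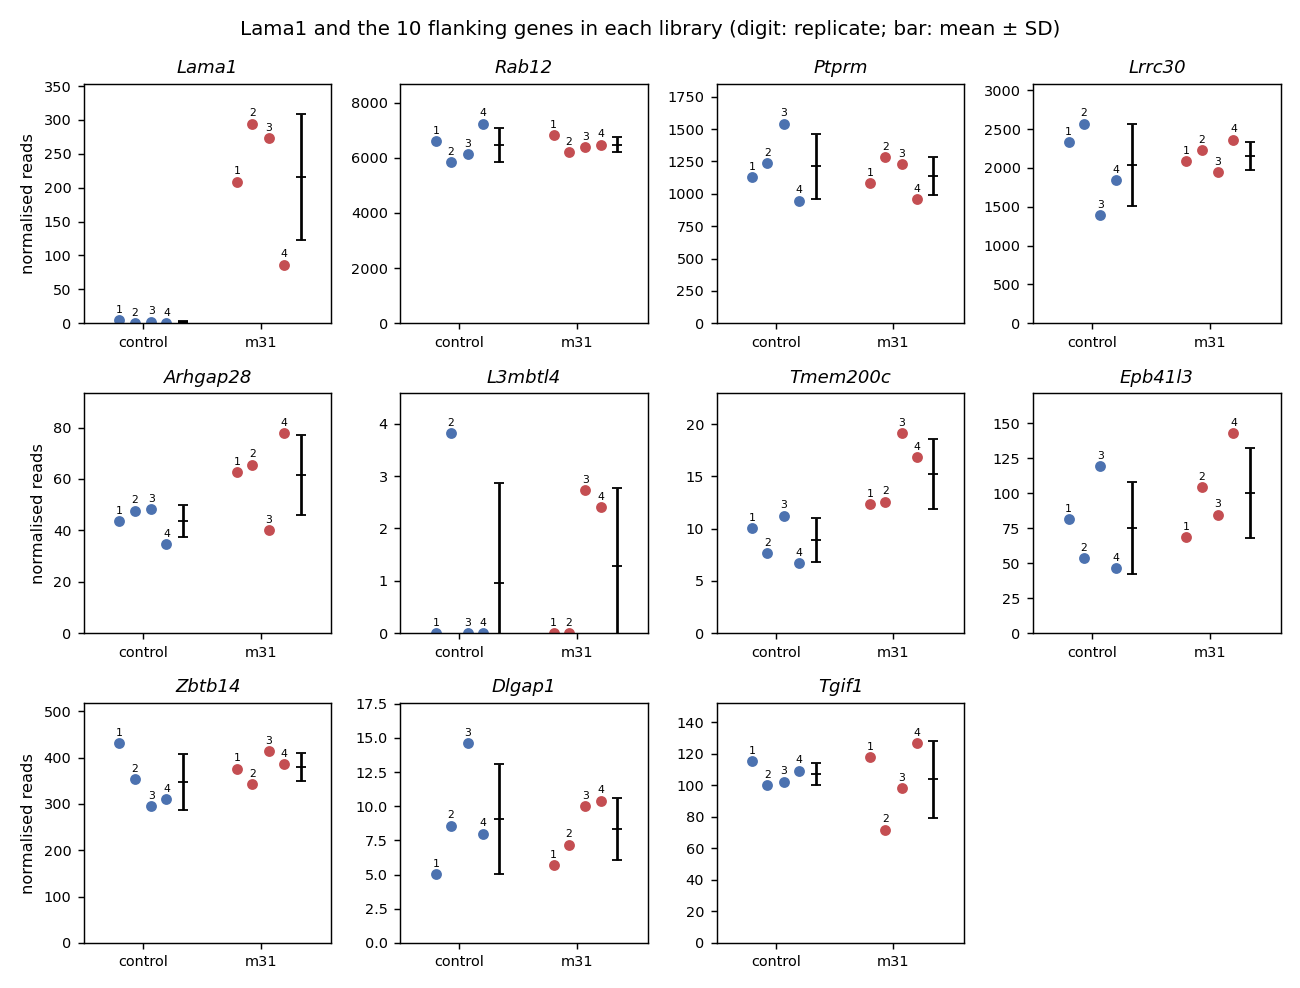
Normalised reads of Lama1 and the 10 flanking genes in each library, control guide in blue and m31 in red, with replicate numbers above the points and the mean ± SD (n = 4 each) as black bars cut off at 0. Lama1 runs from 86.5 to 295 with m31 and from 0 to 4.18 with the control guide, whereas only Tmem200c among the 8 tested flanking genes has every m31 point above every control point.

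For each of the 3 genes on the start side, all m31 values lay within the range of the control values. Lrrc30, a leucine-rich repeat protein gene and the nearest start, had, in replicates 1 to 4 of each group, 2083, 2227, 1945 and 2363 normalised reads with m31 and 2332, 2571, 1388 and 1844 with control. The control libraries hold both the highest and the lowest of these values, and every m31 library lies between them. The log2 difference was 0.12 ± 0.17 (SE; limma, adjusted p = 0.913), with a 95% interval from 0.841-fold to 1.40-fold. Ptprm encodes a receptor tyrosine phosphatase that mediates adhesion between like cells and is well known in endothelium. It stood at 1084, 1281, 1230 and 959 normalised reads with m31 and at 1127, 1237, 1543 and 947 with the control guide. Control replicates 3 and 4 are the extremes and enclose all m31 values. Its log2 difference was -0.08 ± 0.15 (SE; limma, adjusted p = 0.942), with an interval of 0.757-fold to 1.18-fold. Rab12, a small GTPase of endosomal traffic, varied least, with 6838, 6197, 6378 and 6482 normalised reads in the m31 libraries and 6593, 5832, 6134 and 7244 in the control libraries. Here too the m31 libraries lie within the control range. Its log2 difference was 0.01 ± 0.08 (SE; limma, adjusted p = 0.986) and its interval, from 0.885-fold to 1.14-fold, was the narrowest of the 8.

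On the end side, Arhgap28, a gene for a GTPase-activating protein, was the closest to Lama1 by its ends. Its values with m31 were 62.7, 65.6, 40.1 and 77.7 normalised reads in replicates 1 to 4, from 66, 73, 44 and 97 reads. In control replicates 1 to 4 they were 43.5, 47.7, 48.3 and 34.6, from 52, 50, 43 and 26 reads. Thus 3 of 4 m31 libraries were above every control library, while m31 replicate 3 lay among the controls. Means were 61.5 ± 15.7 and 43.5 ± 6.31 (SD, n = 4 each), a log2 difference of 0.46 ± 0.22 (SE; limma, adjusted p = 0.752; exact two-sided permutation p = 0.114). The interval, from 0.978-fold to 1.94-fold, includes no difference. For Lama1, by comparison, the group means were 214 normalised reads apart.

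Tmem200c, a transmembrane protein gene more than 1 Mb from Lama1, was the 1 flanking gene whose groups did not overlap with m31 higher, as they did not for 1.84% of all tested genes; no tested member lay below all controls, as 2.02% of all did. It stood at 12.3, 12.6, 19.1 and 16.8 normalised reads with m31, from 13, 14, 21 and 21 reads, and at 10.04, 7.63, 11.2 and 6.66 with the control guide, from 12, 8, 10 and 5 reads. The lowest m31 library and the highest control library are 1.11 normalised reads apart, about as much as 1 read. Pooled over libraries, 69 reads against 35 gave a depth-corrected ratio of 1.70, whose exact 95% interval, for counting error alone, was 1.11 to 2.63. The log2 difference was 0.72 ± 0.30 (SE; limma, adjusted p = 0.720), and the exact two-sided permutation p of 0.0286 is the smallest that 70 arrangements of the libraries allow. RefSeq's start, shown above, and the GENCODE gene start of Tmem200c differ, so its distance depends on the annotation.

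Epb41l3, whose product 4.1B ties membrane proteins to the actin and spectrin skeleton, stood at 68.4, 104, 84.7 and 143 normalised reads with m31 and at 81.2, 53.4, 119 and 46.6 with the control guide. The groups overlap, with m31 replicate 4 and control replicate 3 highest in their groups. Its log2 difference was 0.45 ± 0.31 (SE; limma, adjusted p = 0.827), with an interval from 0.857-fold to 2.19-fold; it was 0.70 without control replicate 3 (adjusted p = 0.374), 0.27 without m31 replicate 4 and 0.26 without control replicate 4. The summed level of 5 macrophage markers was highest in those same 2 libraries, at 3617 and 2685 normalised reads. It ran from 1575 to 3617 with m31 and from 973 to 2685 with the control guide; 5 of 5 of these markers had positive log2 differences, none passed and none was at 0. The summed fibro-adipogenic progenitor markers (20878.5 and 19467.5) and satellite cell markers (401 and 305) were also highest in m31 replicate 4 and control replicate 3. Single markers of these sums did not all do so. Among the controls Ly6a was highest in replicate 4 (1235) and Pax7 in replicate 1 (105). Among the m31 libraries Myf5 was highest in replicate 2 (51.2). So were, within each group, the sums of fibrillar matrix markers, tendon markers and the other laminin chains. Endothelium and slow fibre sums were lowest of the m31 libraries in replicate 4. In control replicate 3 the endothelium sum was the highest of the controls and the slow fibre sum the lowest. The match was therefore not particular to macrophage markers, and the part of any of these cells in the difference of Epb41l3 was not tested. In bulk tissue, more cells of a type and more RNA per cell cannot be told apart.

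**Figure D2:**
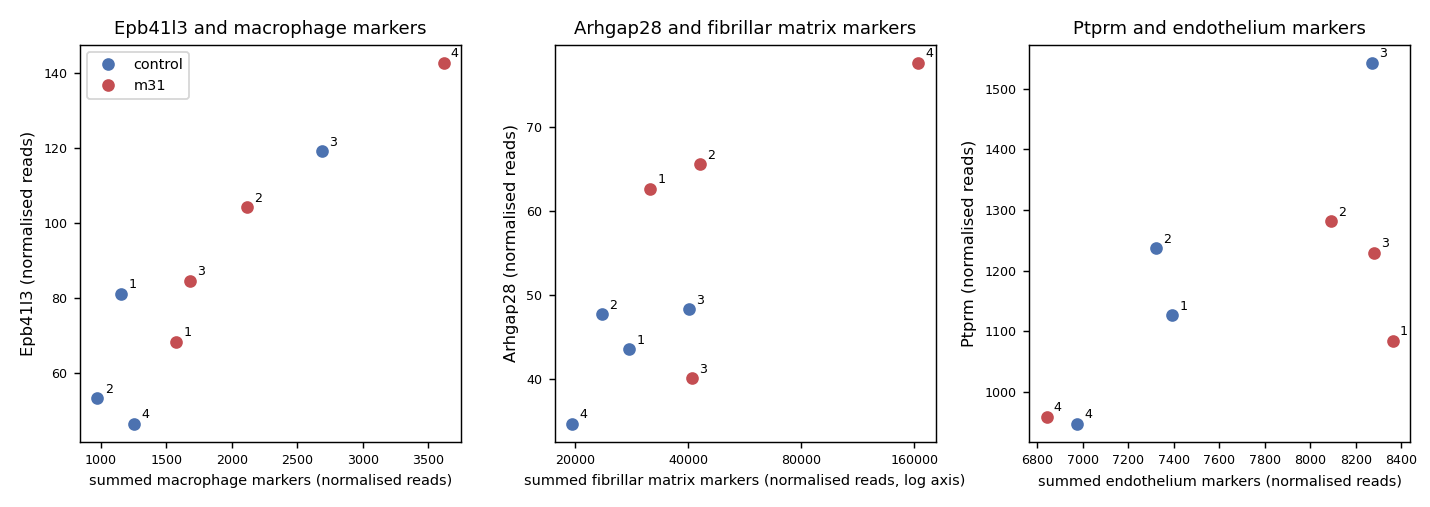
Normalised reads of Epb41l3, Arhgap28 and Ptprm in each library (vertical axes, not starting at 0) against the summed normalised reads of macrophage, fibrillar matrix (log axis) and endothelium markers, control guide in blue and m31 in red, with replicate numbers. Epb41l3 and the macrophage markers are both highest in m31 replicate 4, at 143 and 3617, and next in control replicate 3, at 119 and 2685. The sums of fibro-adipogenic progenitor and satellite cell markers, not plotted, are highest in the same libraries, though not every single marker is. Arhgap28 and the matrix markers are both highest in m31 replicate 4, at 77.7 and 163946.

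Arhgap28 was likewise highest in m31 replicate 4, the library with the highest sum of fibrillar matrix markers. That library also had the highest tendon, macrophage, fibro-adipogenic progenitor and satellite cell sums. Of the m31 libraries, replicate 3 had the lowest Arhgap28 (40.1) but a matrix sum of 41056, above that of replicate 1 (31736). The log2 difference of Arhgap28 was 0.34 without m31 replicate 4 and 0.36 without control replicate 4. Without m31 replicate 3 it was 0.65 (limma, adjusted p = 0.746). The part of these markers' cells in this difference was not tested. Ptprm and the summed level of 4 endothelium markers were both lowest in replicate 4 of each group, although 2 of the 4 markers, Kdr and Tek, were lowest in another control library. The endothelium sum ran from 6840 to 8363 normalised reads with m31 and from 6976 to 8272 with the control guide, with 4 of 4 differences positive (median 0.06), none past the threshold and none at 0. Their part in the values of Ptprm was not tested.

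The further tested genes of the end side also had overlapping groups. Zbtb14, a BTB zinc finger transcription factor gene, stood at 376, 342, 414 and 386 normalised reads with m31 and at 431, 354, 294 and 310 with the control guide. The highest and the lowest of these 8 values both belong to control libraries. Its log2 difference was 0.14 ± 0.13 (SE; limma, adjusted p = 0.870), with an interval from 0.904-fold to 1.34-fold. Tgif1, a homeodomain corepressor gene of TGF-beta signalling, stood at 118, 71.9, 98.3 and 127 normalised reads with m31 and at 116, 100.2, 102 and 109 with the control guide. Here the m31 libraries spread more widely than the controls, 2 above and 2 below all of them. Its log2 difference was -0.07 ± 0.18 (SE; limma, adjusted p = 0.959), with an interval from 0.722-fold to 1.25-fold.

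L3mbtl4 and Dlgap1 were too low to test. L3mbtl4 belongs to the MBT family, whose members bind methylated lysines. It had 3 reads each in m31 replicates 3 and 4, 4 reads in control replicate 2 and 0 in the other 5 libraries, where 3 reads, the limit a count of 0 allows, equal 2.51 to 4.0 normalised reads. L3mbtl4 starts 577 kb from Lama1. Its 6 pooled reads with m31 against 4 correspond to a ratio of 1.29, with counting error alone allowing 0.306 to 6.22 (exact 95% interval). Differences within that interval could not be told from none at this depth. A ratio as high as that of Lama1 lies outside it, but the interval leaves out the spread between libraries, so it does not exclude one. Dlgap1, a scaffold gene of the postsynaptic density, had 5.70 to 10.4 normalised reads in the m31 libraries, from 6, 8, 11 and 13 reads, and 5.02 to 14.6 in the control libraries, from 6, 9, 13 and 6 reads. All m31 values lie within the control range, and 38 pooled reads against 34 gave a ratio of 0.962 (0.589 to 1.57, counting error only).

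Per kb of annotated exons, the flanking genes span a wide range of levels in this muscle. Rab12 had 1923 to 2388 normalised reads per kb over the 8 libraries and Lrrc30 789 to 1461, followed by Ptprm with 107 to 175 and Zbtb14 with 62.9 to 92.1. Tgif1 had 12.8 to 22.5, Arhgap28 6.44 to 14.5, Epb41l3 3.91 to 12.0 and Tmem200c 1.96 to 5.61 normalised reads per kb, and each of these 4 ranges overlaps the next. Dlgap1 and L3mbtl4 were lowest, at up to 0.817 and 0.628. Lama1 with m31 had a mean of 22.3 normalised reads per kb, between Zbtb14 and Tgif1 (18.4 with m31). The 4 highest flanking genes had standard errors of 0.08 to 0.17 on the log2 scale and the 4 lowest tested ones of 0.18 to 0.31, so differences at Arhgap28, Epb41l3 and Tmem200c were measured least precisely.

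Differences did not fall steadily with distance. By start-to-start distance the log2 differences were 0.12 (Lrrc30, 64.5 kb), 0.46 (Arhgap28, 307 kb), -0.08 (Ptprm, 343 kb), 0.72 (Tmem200c, 1129 kb), 0.01 (Rab12, 1178 kb), 0.45 (Epb41l3, 1378 kb), 0.14 (Zbtb14, 1686 kb) and -0.07 (Tgif1, 3156 kb). The nearest start thus had a smaller difference than 4 more distant genes, although all of these intervals overlap. Ordered by nearest ends, the tested members began with Arhgap28 (20.1 kb, 0.46), Lrrc30 (64.5 kb, 0.12) and Ptprm (343 kb, -0.08), a decline. Beyond them came Tmem200c (1004 kb, 0.72), Rab12 (1178 kb, 0.01), Epb41l3 (1253 kb, 0.45), Zbtb14 (1560 kb, 0.14) and Tgif1 (3022 kb, -0.07). All tested genes around Lama1, members or not, were also counted. Within 0.5 Mb 4 genes were tested, 3 with a positive and 1 with a negative log2 difference and a median of 0.20. Within 2 Mb there were 21 (11 positive, 10 negative) and within 5 Mb 43 (22 positive, 21 negative), both with a median of 0.009, and 0 were past the threshold in any of these windows. Between 1 and 2 Mb the median of 17 genes was -0.002, as it was between 2 and 5 Mb for 22 genes. An unadjusted p under 0.05 stood at 4 of the 17 genes between 1 and 2 Mb, Tmem200c among them, and at 0 of the 4 genes nearer and 0 of the 22 farther, beside 6.79% of all tested genes (limma). For comparison, the 779 tested genes of chromosome 17 other than Lama1, which include those counted above, had a median of 0.02 and 55.1% positive differences. Of all tested genes, 51.3% had positive differences.

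**Figure D3:**
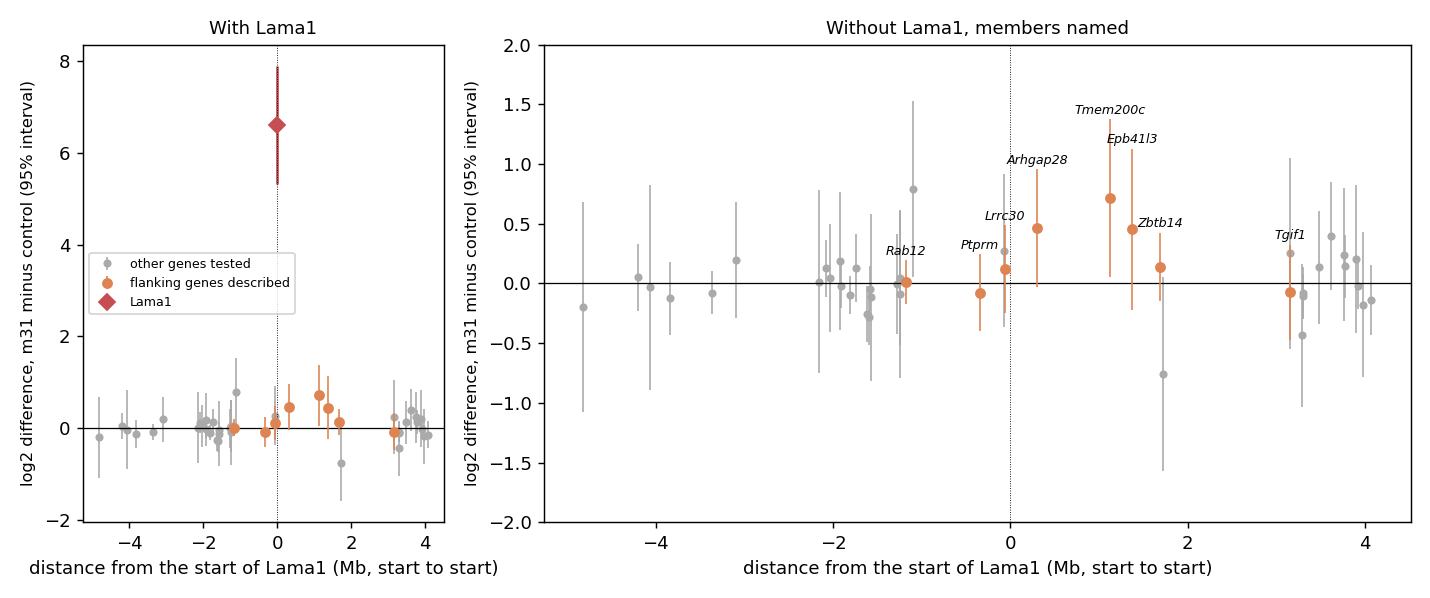
Log2 difference (m31 minus control, with 95% intervals from limma) of every tested gene within 5 Mb against its distance from the start of Lama1 in Mb, negative on the start side; the left panel includes Lama1 at 6.60 and the right panel enlarges the rest. The flanking genes described (orange) lie between -0.08 and 0.72, among the other tested genes (grey), which lie between -0.76 and 0.79.

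Among the 35 tested genes within 5 Mb that are not among the 10, those nearest on the start side were the long non-coding RNA gene CT030155.1, which lies beside Lrrc30 67.9 kb from Lama1, at 43.1 ± 6.97 normalised reads in the m31 libraries and 37.6 ± 17.2 in the controls (SD, n = 4 each), then Themis3 and CT010496.1. On the end side they were C030034I22Rik, Gm9320 and Myl12b, a gene for a regulatory light chain of non-muscle myosin, with log2 differences of -0.76, 0.25 and -0.44. None of them passed. An unadjusted p under 0.05 was reached by 3 of the 35, where 6.79% of all tested genes reached it: Ndufv2, a subunit gene of respiratory complex I, with a log2 difference of -0.28, Ankrd12, an ankyrin repeat protein gene, with -0.26, and Themis3 with 0.79 (limma, adjusted p = 0.715, 0.720 and 0.720). The groups of all 3 overlapped. These 3 lie 1103 to 1620 kb from Lama1, on the start side, and 2 of them had negative differences.

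Within the m31 libraries the flanking genes did not follow Lama1 as a group. Lama1 was highest in m31 replicate 2, then 3, then 1, and lowest in replicate 4, at 86.5 normalised reads. In 1 of the 8 tested genes, Ptprm, the 4 libraries stood in this order, as they did in 4.57% of all tested genes. In 1 other, Tgif1, they stood in exactly the reverse order, as in 3.76% of all. Over all 8 genes, 19 of 48 pairs of libraries were in the order of Lama1, where over all tested genes a gene had on average 3.03 of its 6 pairs in that order. With 4 libraries there are too few points for a correlation, and none is given.

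Arhgap28, Epb41l3, Lrrc30 and Tgif1 were highest in the m31 library with the least Lama1, which was so for 29.8% of all tested genes, and only Ptprm was lowest there, against 30.3% of all. In that library Arhgap28 was 1.39 times, Epb41l3 1.66 times and Tmem200c 1.15 times its mean in the other 3 m31 libraries, and Ptprm 0.800 times. Tgif1 was 1.32 times, Lrrc30 1.13 times, Zbtb14 1.02 times and Rab12 1.002 times that mean. The same library had the highest sum of fibrillar matrix markers and the lowest of slow fibre markers. For Arhgap28 and Epb41l3, the 2 genes nearest to Tmem200c in the size of their difference, the highest m31 value was therefore found beside the lowest Lama1.

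**Figure D4:**
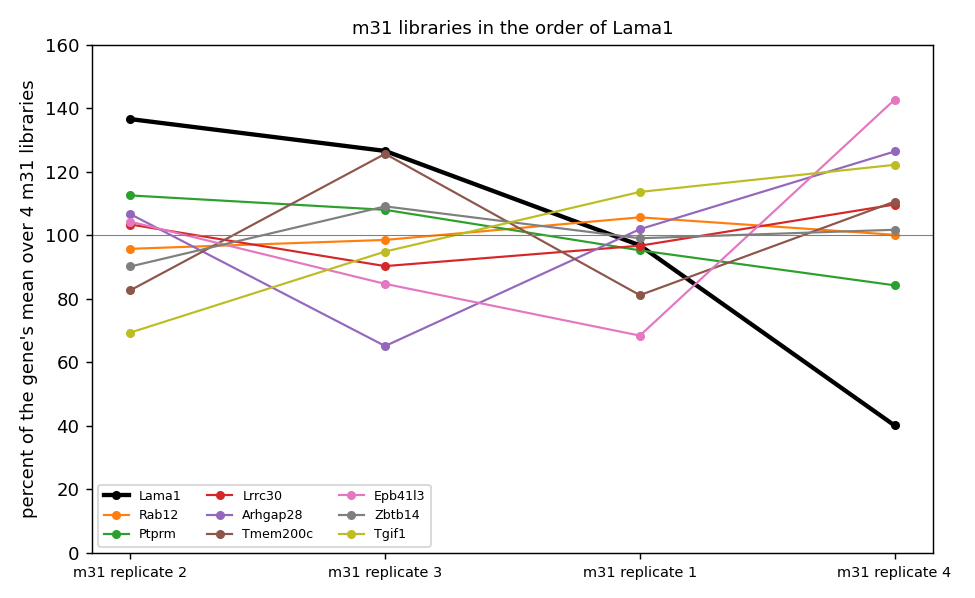
Level of Lama1 (black) and the 8 tested flanking genes in each m31 library, in percent of the gene's own mean over the 4 m31 libraries, with libraries in the order of Lama1. Lama1 declines from replicate 2 to replicate 4, Ptprm declines with it, Tgif1 runs the other way, and Arhgap28 and Epb41l3 are highest in replicate 4, where Lama1 is lowest at 86.5 normalised reads.

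Ptprm stood in the order of the GNDM level not only within the m31 libraries but also within the control libraries: GNDM was 11970, 13775, 37989 and 9802 normalised reads in control replicates 1 to 4, and Ptprm 1127, 1237, 1543 and 947. This was noticed in the data, and a slope on log2 GNDM was then fitted for all genes with the guide in the model. The slope of Ptprm was 0.27 ± 0.06 (SE) log2 units per doubling of GNDM (limma, unadjusted p = 0.000818, adjusted p = 0.225 over 15960 genes). It did not pass, where 2 genes, 0.0125%, did and 6.25% had an unadjusted p under 0.05. Without control replicate 3 the slope of Ptprm was 0.25 (limma, unadjusted p = 0.0103). Ptprm was picked by its order in these same libraries, so its p-values are no independent support. For the fit without control replicate 3, the share of all genes at an unadjusted p under 0.05 was not counted. The other 7 tested flanking genes had slopes of -0.22 (Tgif1) to 0.19 (Epb41l3), none past the threshold. Several of these slopes changed without control replicate 3. Lrrc30 then had -0.006 in place of -0.20 and Zbtb14 -0.03 in place of -0.10, each smaller in size. Arhgap28 had -0.14 in place of -0.01 and Tgif1 -0.39 in place of -0.22 (limma, unadjusted p = 0.0167), each larger in size. Epb41l3 had -0.20 in place of 0.19 and Tmem200c -0.11 in place of 0.08, with the sign reversed.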

How the data were processed

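RNA-seq libraries of mouse gastrocnemius (4 with guide m31, 4 with a control guide) were grouped by their titles. The authors deposited a normalised signal, read counts per gene divided by 1 size factor per library; per the submitters' processing notes STAR and DESeq2 were used, and the notes name build GRCh38.p12 although the gene identifiers are mouse. Counting program and strand setting: not given in the sources used here. Of 11 value columns, the 3 that match no label were not used. All values were whole multiples of 1 read within 0.01 of a read, so reads (25157486 to 39210248 per library) were recovered; 5 construct entries, 0.0230 to 0.142% of reads, were kept out of the tests. Symbols matched 22979 of 23008 identifiers.

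Tests used limma 3.58.1 (R 4.3.3) on log2(value + 1), with an intensity trend and the guide as the only term, for genes with a mean of at least 10, with Benjamini-Hochberg adjustment over 15960 genes and a threshold of 0.05; fold changes of low genes are understated on this scale. edgeR 4.0.16 and DESeq2 1.42.0 were run on the recovered reads as alternatives. The main limma fit, the edgeR and DESeq2 fits and the slope fit on GNDM were tested on simulated data, and the other alternatives were not. Permutation tests were exact and two-sided. Ratios of pooled reads have exact 95% intervals for counting error only. Coordinates and exon lengths come from GENCODE M21, promoters from RefSeq, for all 10 genes. Named genes were Lama1, the 10 genes and, of the other tested genes within 5 Mb, the 3 nearest per side and those with an unadjusted p under 0.05. Members and lists were chosen with earlier results of these data known. Alternatives left out each library in turn, used replicate numbers as a block, or took other minimums, scalings and pseudocounts, the GNDM level as a covariate and 2 libraries left out together. No 2 replicates were alike within sampling noise (chi-square per degree of freedom 14.3 to 57.9).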

Additional observations from a re-analysis of the deposited data

Results flagged for a closer look

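Of 64 groups of 4 libraries examined, 5 held a library far from the other 3; chance flags about 1 group in 20. L3mbtl4 stood at 3.82 normalised reads in control replicate 2, from 4 reads, and at 0 in the other control libraries. Gm9320, a pseudogene near Tgif1, stood at 19.1 normalised reads in control replicate 2 against 7.53 to 9.33. The summed fibrillar matrix markers reached 163946 in m31 replicate 4, and 31736 to 42989 in replicates 1 to 3. In control replicate 3 the summed macrophage markers stood at 2685 against 973 to 1255, and GNDM at 37989 against 9802 to 13775 normalised reads. None of the 8 tested flanking genes was flagged in either group.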

How the results depend on the processing

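Under all 19 alternatives none of the tested flanking genes passed, and Lama1 did, with log2 differences of 4.98 to 7.22. The log2 differences of Arhgap28 (0.34 to 0.65), Tmem200c (0.54 to 0.83), Epb41l3 (0.26 to 0.70) and Zbtb14 (0.06 to 0.25) were positive in every setting in which they were tested; a minimum mean of 50 removed Tmem200c. Differences near 0 changed sign in 12 cases, the cause not tested. Rab12 turned to -0.0074 with the GNDM level as a covariate, to -0.01 without m31 replicate 4 and control replicate 3 together and to -0.026 when recentred on library medians, and ranged from -0.038 to 0.066 with single libraries left out. Without those 2 libraries Ptprm turned to 0.12 and Lrrc30 to -0.10; with single libraries left out they ranged from -0.19 to 0.04 and from -0.05 to 0.24, turning without control replicate 3 (0.04 and -0.05) and, for Ptprm, without m31 replicate 4 (0.00089). Tgif1 ranged from -0.18 to 0.090, positive without m31 replicate 2, and was -0.199 without the 2 libraries.

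Over all genes, 1 passed in the main analysis, 31 with DESeq2, 3 without those 2 libraries and 1 to 2 with single libraries left out. The median within 5 Mb went from 0.009 to -0.03 when recentred on library medians, and ranged from -0.02 (without control replicate 2) to 0.04 (without control replicates 1 or 3) with single libraries left out. Replicate numbers did not pair the samples: deviations of same-numbered libraries correlated at -0.18 to 0.05, 0 of 4 m31 libraries correlated best with their own number, and with the replicate block 1 gene passed. At the counts of Tmem200c and L3mbtl4, depth limits what can be seen.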
